A study of Homo sapiens with 5 samples.

Results

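Peaks of 2 histone marks were examined at the 4 genes of the nuclear factor I (NFI) family, NFIA, NFIB, NFIC and NFIX, in VCaP (Vcap in the labels), a human cell line established from a prostate cancer. One mark is H3K27ac, an acetyl group on lysine 27 of histone H3, and the other is H3K4me1, a single methyl group on its lysine 4. Each was mapped by chromatin immunoprecipitation with sequencing in 2 libraries. All libraries came from this line, grown in serum-containing medium, and the labels name no treatment. A further library of input chromatin was not analysed here. The members are all intervals of the 4 deposited peak lists that reach within 50 kb of the spans of the genes in build hg19. The H3K27ac lists hold 88 (replicate 1) and 105 (replicate 2) of them, and the H3K4me1 lists 167 (replicate 1) and 180 (replicate 2). Together these are 540 of 363159 intervals on the autosomes and chromosome X. The family was chosen on the basis of earlier results from the same lists, among them a region in NFIX that is one of the widest H3K27ac regions of the series. The values below are therefore descriptions, and no test is offered for a difference between the genes. Over genes and lists, the member farthest from its gene lay 25.9 to 49.8 kb away, and the nearest interval left out lay 50.3 to 95.4 kb away.

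The lists hold positions only, with no peak height or enrichment, and the depth of each library is unknown. Hg19 positions of prostate marker genes were not used here, so the cell line label was not checked against markers. The labels give the replicates only a number, so their spread may reflect handling of a single culture, and the tests below measure no more than that spread.

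NFI proteins bind DNA as dimers through a conserved amino-terminal domain, and they activate or repress transcription depending on the target. Their palindromic recognition sequence is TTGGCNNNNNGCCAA, and a single half-site, TTGGC or GCCAA, is bound more weakly. In prostate cells NFI proteins are known as partners of the androgen receptor and of FOXA1, a factor that opens chromatin. H3K27ac marks active promoters and enhancers, while H3K4me1 marks enhancers, active or not, and the flanks of promoters.

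NFIA, known for its role in glial development, spans 386 kb of chromosome 1 (61542946 to 61928460, plus strand). NFIB, known for its role in lung maturation, spans 317 kb of chromosome 9 (14081842 to 14398982, minus strand). NFIC, which in mice is needed for tooth root formation, spans 109.7 kb of chromosome 19 (3359561 to 3469215, plus strand). NFIX, a regulator of fetal muscle genes in mice, spans 103 kb of chromosome 19 (13106584 to 13209610, plus strand). With both 50 kb flanks the windows measured 486, 417, 209.7 and 203 kb. Positions along a gene are given below as distances from its outer start, the upstream end of the span. RefSeq lists further starts for NFIA, NFIB and NFIX, and those of NFIB lie farther apart than the length of its span, so this end need not be the start in use.

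The promoters are shown because the H3K27ac patterns of the genes differed at and behind their starts. RefSeq (build GRCh38.p14) lists 3 start sites for NFIA, 10 for NFIB, 1 for NFIC and 5 for NFIX, so all 4 symbols were matched. Given here, from 250 bases before to 50 bases after the start, are the first listed promoter of each gene and, where there are several, the downstream one richest in CpG. Half-sites of the NFI motif, searched on both strands, are in capitals.
NFIA promoter, first listed (chr1:61076977-61077276, plus strand): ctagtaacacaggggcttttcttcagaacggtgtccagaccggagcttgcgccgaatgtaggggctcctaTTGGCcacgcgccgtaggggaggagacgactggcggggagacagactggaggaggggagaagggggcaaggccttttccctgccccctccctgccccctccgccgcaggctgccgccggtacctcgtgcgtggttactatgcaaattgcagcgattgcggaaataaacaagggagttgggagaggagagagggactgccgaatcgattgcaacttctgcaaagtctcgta
NFIA promoter, downstream (chr1:61082311-61082610, plus strand): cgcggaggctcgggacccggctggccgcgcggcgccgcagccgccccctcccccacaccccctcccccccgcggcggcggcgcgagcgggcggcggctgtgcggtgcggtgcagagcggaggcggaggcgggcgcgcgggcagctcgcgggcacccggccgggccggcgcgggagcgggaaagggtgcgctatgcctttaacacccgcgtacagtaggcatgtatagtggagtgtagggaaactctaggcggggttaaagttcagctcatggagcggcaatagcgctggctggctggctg
NFIB promoter, first listed (chr9:14322338-14322637, minus strand): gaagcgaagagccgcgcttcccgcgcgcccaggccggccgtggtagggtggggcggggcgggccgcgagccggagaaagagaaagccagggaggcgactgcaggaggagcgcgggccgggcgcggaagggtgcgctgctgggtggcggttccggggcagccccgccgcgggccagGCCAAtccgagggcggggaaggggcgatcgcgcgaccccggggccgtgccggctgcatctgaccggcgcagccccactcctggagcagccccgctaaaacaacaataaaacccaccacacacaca
NFIB promoter, downstream (chr9:14314092-14314391, minus strand): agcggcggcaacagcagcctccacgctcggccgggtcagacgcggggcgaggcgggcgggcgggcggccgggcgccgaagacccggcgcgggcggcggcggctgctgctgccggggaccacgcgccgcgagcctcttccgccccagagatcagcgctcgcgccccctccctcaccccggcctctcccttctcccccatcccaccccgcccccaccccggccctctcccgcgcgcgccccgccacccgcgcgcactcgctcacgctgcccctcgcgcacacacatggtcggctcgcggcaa
NFIC promoter, only one listed (chr19:3359380-3359679, plus strand): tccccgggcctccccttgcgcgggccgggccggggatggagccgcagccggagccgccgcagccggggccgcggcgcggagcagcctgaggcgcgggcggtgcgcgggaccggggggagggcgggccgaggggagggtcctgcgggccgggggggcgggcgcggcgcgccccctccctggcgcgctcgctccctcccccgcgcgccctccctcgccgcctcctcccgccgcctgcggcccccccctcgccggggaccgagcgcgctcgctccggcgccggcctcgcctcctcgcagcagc
NFIX promoter, first listed (chr19:12995225-12995524, plus strand): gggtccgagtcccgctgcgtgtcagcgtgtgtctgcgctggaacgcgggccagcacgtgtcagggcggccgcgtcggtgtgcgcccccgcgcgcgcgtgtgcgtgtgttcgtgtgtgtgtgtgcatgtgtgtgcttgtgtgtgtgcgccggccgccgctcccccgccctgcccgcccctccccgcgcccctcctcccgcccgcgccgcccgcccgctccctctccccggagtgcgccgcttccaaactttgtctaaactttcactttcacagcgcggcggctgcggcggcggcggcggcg
NFIX promoter, downstream (chr19:13024529-13024828, plus strand): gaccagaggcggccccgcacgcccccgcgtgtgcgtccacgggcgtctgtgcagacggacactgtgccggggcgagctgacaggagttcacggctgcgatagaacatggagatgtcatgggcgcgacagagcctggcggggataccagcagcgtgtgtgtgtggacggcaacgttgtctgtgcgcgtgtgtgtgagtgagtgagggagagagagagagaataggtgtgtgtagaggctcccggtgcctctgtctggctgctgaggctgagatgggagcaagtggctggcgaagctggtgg

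The first listed promoters held 20 CpG (NFIA), 37 (NFIB), 51 (NFIC) and 46 (NFIX) in 300 bases, against a median of 14 over all 35116 listed promoters. The downstream ones held 41 (NFIA), 48 (NFIB) and 23 (NFIX). A half-site was found in 9 of the 19 listed promoters of the family, and in 45.6% of all 35116. Some listed promoters overlap, and the NFIX ones beginning at 13024329 and 13024331 hold the same half-site, which is counted in each. The full palindrome was found in 0 of the 19 and in 0.0285% of all. Half-sites in the sequences shown are limited to the first listed promoters of NFIA and NFIB. A match is only a match of letters, and no binding data were used.

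NFIX had the largest share of its window under H3K27ac and NFIA the smallest. H3K27ac covered 26.8 and 26.9% of the NFIX window in replicates 1 and 2, while 13.6 and 12.3% was covered at NFIB. It covered 8.22 and 8.54% at NFIC, and 6.74 and 6.49% at NFIA. These 4 pairs of values did not overlap, so the order of the genes was the same in both libraries. The last 2 places depended on the flanks, since within the gene spans alone H3K27ac covered 6.30 and 7.16% of NFIC and 7.12 and 6.93% of NFIA. Within the spans NFIX stood at 42.2 and 41.2% and NFIB at 15.9 and 14.5%. The wide NFIX region known when the family was chosen made up 42.3% of the H3K27ac length in replicated regions at NFIX. Nothing is therefore read from the lead of NFIX over the other genes.

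In the full windows H3K4me1 was ordered differently, and NFIC rather than NFIA had the least. In the spans alone and with 20 kb flanks, both marks gave the same order by mean cover, NFIX, NFIB, NFIA and NFIC. H3K4me1 covered 14.6 and 19.5% of the NFIX window in replicates 1 and 2, and 12.8 and 20.4% at NFIB. The libraries disagreed on which of these was higher. The mark covered 6.53 and 11.2% of the NFIA window, and 2.58 and 3.25% at NFIC. The NFIC values lay below all NFIA values, although the NFIA libraries differed from each other by more than the gap to NFIC.

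**Figure D1:**
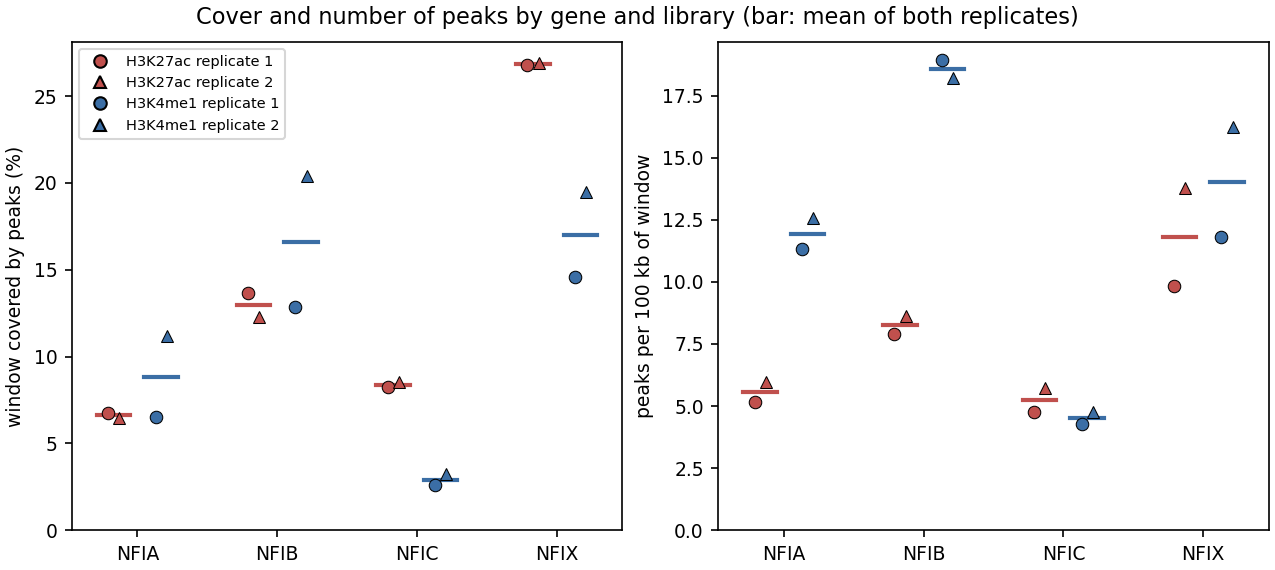
Share of each window covered by peaks in % (left) and peaks per 100 kb of window (right) for the 4 genes, H3K27ac in red left of H3K4me1 in blue, circles for replicate 1, triangles for replicate 2 and bars for their mean. NFIX has the highest H3K27ac cover (26.8 and 26.9%) and NFIC the lowest H3K4me1 cover (2.58 and 3.25%).

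For scale, the genome was divided into 12498 windows of 200 kb holding at least 1 peak. H3K27ac covered a median of 1.63 to 1.79% of such a window, and H3K4me1 2.06 to 3.49%, over libraries. Of these windows, 0.112 and 0.104% reached the NFIX value for H3K27ac in replicates 1 and 2, and 0.720 and 0.736% its value for H3K4me1. The NFIC value was reached by 7.94 and 6.14% of windows for H3K27ac, and by 41.9 and 52.6% for H3K4me1. The NFIX and NFIC windows are close to 200 kb in length, whereas those of NFIA and NFIB are longer. All are placed around genes, unlike the genome windows. The family was chosen with the wide NFIX region known, and that region made up 42.3% of the H3K27ac length at NFIX. Nothing is therefore read from the H3K27ac standing of NFIX among the genome windows.

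By raw count, H3K4me1 peaks separated the large genes from the small ones, and H3K27ac peaks did not. The windows differ in length, and per 100 kb the H3K4me1 separation was gone. H3K4me1 peaks per 100 kb were 11.3 and 12.6 at NFIA and 18.9 and 18.2 at NFIB (replicates 1 and 2). They were 4.29 and 4.77 at NFIC, and 11.8 and 16.3 at NFIX. NFIA had 25 and 29 H3K27ac peaks (replicates 1 and 2), against 55 and 61 H3K4me1 peaks. NFIB had 33 and 36 H3K27ac peaks, against 79 and 76 H3K4me1 peaks. At these genes H3K4me1 peaks outnumbered H3K27ac peaks in every pairing of libraries, and the ratio of mean peak numbers, H3K27ac over H3K4me1, was 0.466 and 0.445. NFIC had 10 and 12 H3K27ac peaks, against 9 and 10 H3K4me1 peaks. NFIX had 20 and 28 H3K27ac peaks, against 24 and 33 H3K4me1 peaks. At the chromosome 19 genes the marks overlapped in number, and the ratios were 1.16 (NFIC) and 0.842 (NFIX). The ratio over all peaks of the series was 0.491, and it was 0.514 on chromosome 1, 0.463 on chromosome 9 and 0.801 on chromosome 19. The NFIA, NFIB and NFIX ratios thus lay near those of their chromosomes.

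By covered length the balance tilted to H3K27ac at the chromosome 19 genes, as it did over chromosome 19 as a whole. H3K27ac covered 17.2 and 17.9 kb at NFIC, against 5.42 and 6.81 kb for H3K4me1, a ratio of means of 2.87. It covered 54.4 and 54.6 kb at NFIX, against 29.6 and 39.5 kb for H3K4me1, a ratio of 1.58. At NFIA the lengths were 32.7 and 31.5 kb for H3K27ac, against 31.7 and 54.2 kb for H3K4me1. At NFIB they were 56.9 and 51.3 kb for H3K27ac, against 53.5 and 85.0 kb for H3K4me1. At NFIA and NFIB the libraries of the marks overlapped in length, and the ratios of means, 0.748 and 0.781, passed 1 with H3K4me1 replicate 1 alone (1.01 at each). Over the series the ratio of covered length was 0.764, and it was 0.804 on chromosome 1, 0.691 on chromosome 9 and 1.35 on chromosome 19. The NFIX ratio, 1.38 in its lowest pairing of libraries, lay near that of chromosome 19, and the NFIC ratio lay above it. The NFIX length includes the wide region known when the family was chosen, so nothing is read from the NFIX ratio.

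Over all 4 windows, H3K27ac libraries held 96.5 ± 12.02 peaks and H3K4me1 libraries 173.5 ± 9.19 (mean ± SD, n = 2 each), a ratio of 0.556. The covered length was 158.3 ± 4.17 kb for H3K27ac and 152.9 ± 46.2 kb for H3K4me1. Its ratio of 1.04 fell below 1, to 0.853, without H3K4me1 replicate 1, and to 0.960 in the gene spans alone. The median peak width was 989.5 ± 237 bp for H3K27ac and 623.5 ± 189 bp for H3K4me1, a ratio of 1.59. Exact two-sided permutation tests over libraries gave p = 0.333 for peak number, p = 1 for length and p = 0.333 for width. In a family of 15 tests over genes and quantities the adjusted values were 0.625 or higher, and 2 against 2 libraries cannot give a p below 0.333. With equal numbers of the widest peaks of each list, the ratios of peak number and of median width became 1.01 and 0.992. This setting makes the lists equal in number by dropping mainly narrow H3K4me1 peaks, so the direction of both shifts follows from the setting itself.

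**Figure D2:**
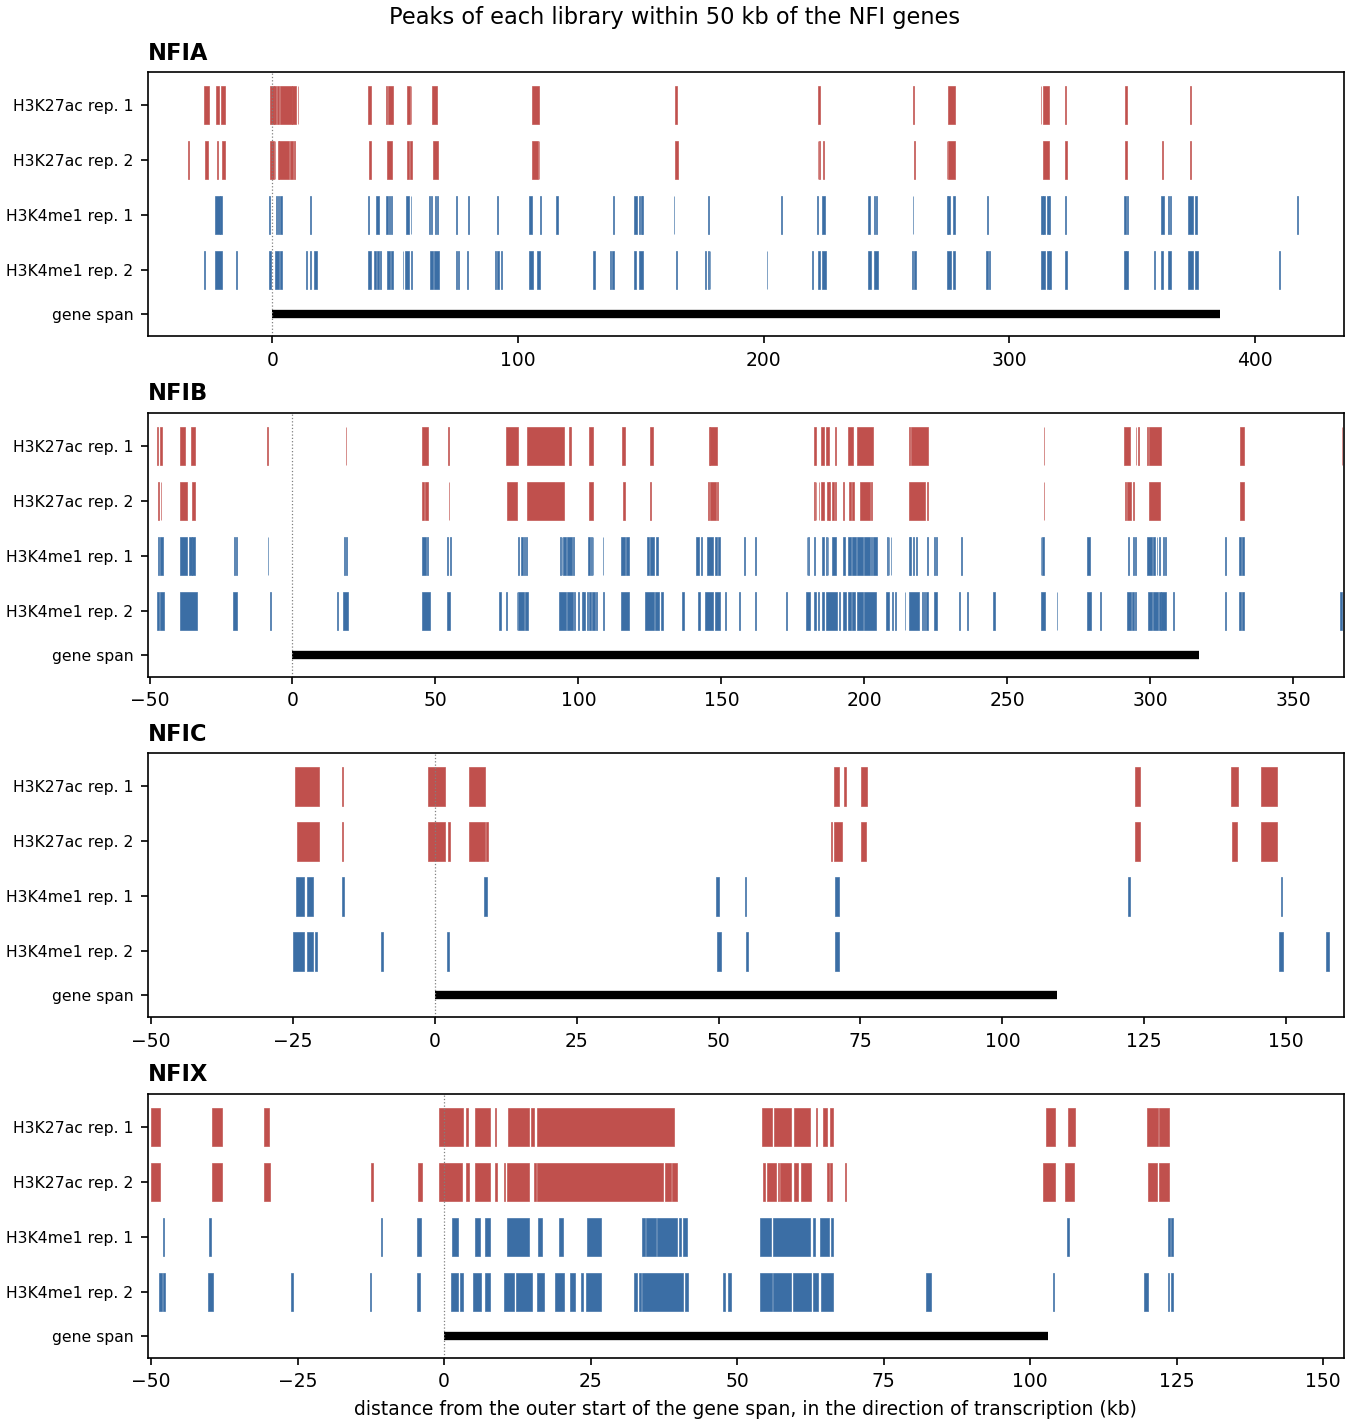
Peaks of each library along the 4 genes, by distance from the outer start of the gene span in kb, H3K27ac in red above H3K4me1 in blue, with the span as a black bar and 50 kb shown on either side. H3K27ac covers the outer start at NFIA, NFIC and NFIX and not at NFIB, and it forms a block from 15.8 to 39.8 kb inside NFIX and one from 82.0 to 95.02 kb inside NFIB.

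Most peaks recurred between replicates, and this was lower for H3K4me1 replicate 2 than for the other libraries, as in the whole lists. Of the members, 84.1% of H3K27ac replicate 1 peaks and 81.9% of replicate 2 peaks overlapped a peak of the other replicate, beside 87.9 and 86.0% over all peaks. For H3K4me1 it was 89.8% of replicate 1 and 62.2% of replicate 2, beside 88.3 and 68.7%. NFIC stood lowest for H3K4me1, where 5 of 9 peaks of replicate 1 and 5 of 10 of replicate 2 recurred. Peaks of both libraries of a mark that overlapped by 1 bp or more were merged, and a merged region with a peak of each is called a replicated region below. This gave 70 H3K27ac regions in the 4 windows (20 at NFIA, 24 at NFIB, 9 at NFIC and 17 at NFIX). It gave 109 H3K4me1 regions (40 at NFIA, 47 at NFIB, 5 at NFIC and 17 at NFIX). A further 33 H3K27ac and 85 H3K4me1 merged regions had peaks of 1 library only.

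H3K27ac lay over the outer start of NFIA, NFIC and NFIX in both libraries, and H3K4me1 lay over none of these starts in either library. At NFIA the H3K27ac peak over the start was 1583 and 1569 bp wide in replicates 1 and 2. The nearest H3K4me1 peak ended 1049 and 494 bp before the start. At NFIC the H3K27ac peak was 2983 and 2959 bp wide, and the nearest H3K4me1 peak began 8742 and 2140 bp past the start. At NFIX the H3K27ac peak was 4188 and 3953 bp wide, with H3K4me1 beginning 1434 and 1264 bp past the start, inside the H3K27ac peak.

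The outer start of the NFIB span, which may not be the outermost start of the gene, carried neither mark. The nearest H3K27ac peak lay 8452 bp away in replicate 1 and 34109 bp away in replicate 2, and H3K4me1 lay 8430 and 7589 bp away. Inside the span, the first replicated H3K27ac region began 45.1 kb from the outer start. NFIB carried its widest H3K27ac further in. A region of 4015 bp (chromosome 9, 14320200 to 14324214) lay 74.8 to 78.8 kb from the outer start and overlapped no replicated H3K4me1 region, although replicate 2 peaks covered 13.4% of it. A region of 12988 bp (14303959 to 14316946) followed at 82.0 to 95.02 kb.

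The widest H3K27ac region of each of NFIA, NFIB and NFIX lay inside the gene, behind the outer start. At NFIX it measured 23976 bp (chromosome 19, 13122405 to 13146380), from 15.8 to 39.8 kb past the outer start, with peaks of 23423 and 21521 bp in replicates 1 and 2. It made up 42.3% of the H3K27ac length at NFIX and ranked 3 among 47128 replicated H3K27ac regions by width. The NFIB region of 12988 bp was nearly the same in both replicates (12979 and 12935 bp) and ranked 35. At NFIA a region of 6772 bp (chromosome 1, 61545888 to 61552659) lay 2.94 to 9.71 kb past the outer start, with peaks of 4906 and 4015 bp, and ranked 402. NFIC differed, since its widest region, 4127 bp (chromosome 19, 3334988 to 3339114), lay outside the gene, from -24.6 to -20.4 kb relative to the outer start, and ranked 2181.

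The listed start sites of these genes also lie apart. In GRCh38, NFIA has 2 listed starts 4.51 and 5.33 kb downstream of the first listed one. NFIX has 4 starts 28.5 to 29.3 kb downstream of the first. NFIB has 7 starts from 6.25 to 22.1 kb downstream of the first, another 141.6 kb downstream, and a start 209.7 kb upstream of it, so the first listed start of NFIB is not the outermost. Positions were not converted between builds, so whether these starts fall inside the wide H3K27ac regions given in hg19 was not tested. By distance alone, if the first listed start is the outer start, the NFIA starts would fall inside its region at 2.94 to 9.71 kb. The NFIX starts would then fall inside its region at 15.8 to 39.8 kb. In both regions that would be where neither H3K4me1 library had a peak. No such placing was made for NFIB.

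Of the 70 H3K27ac regions, 6 were 5 kb or wider, or 8.57%, beside 2.44% of all replicated H3K27ac regions. They comprised 4 at NFIB, 1 at NFIA and 1 at NFIX. Of the 70, 2 reached 10 kb, those described at NFIX and NFIB, beside 0.214% of all. Of the 109 H3K4me1 regions, 3 were 5 kb or wider, 2 at NFIX and 1 at NFIB, beside 0.559% of all. The family includes a region known beforehand to be among the widest, so nothing is read from these shares. The median width of H3K27ac regions was 1792 bp at NFIX, 1602.5 bp at NFIB, 1412 bp at NFIC and 1319.5 bp at NFIA, each above the 1217 bp of all H3K27ac regions. The median width of H3K4me1 regions was 1179 bp at NFIX, 1322 bp at NFIB, 841 bp at NFIC and 1167 bp at NFIA, beside 944 bp for all H3K4me1 regions. NFIC was below that value.

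**Figure D3:**
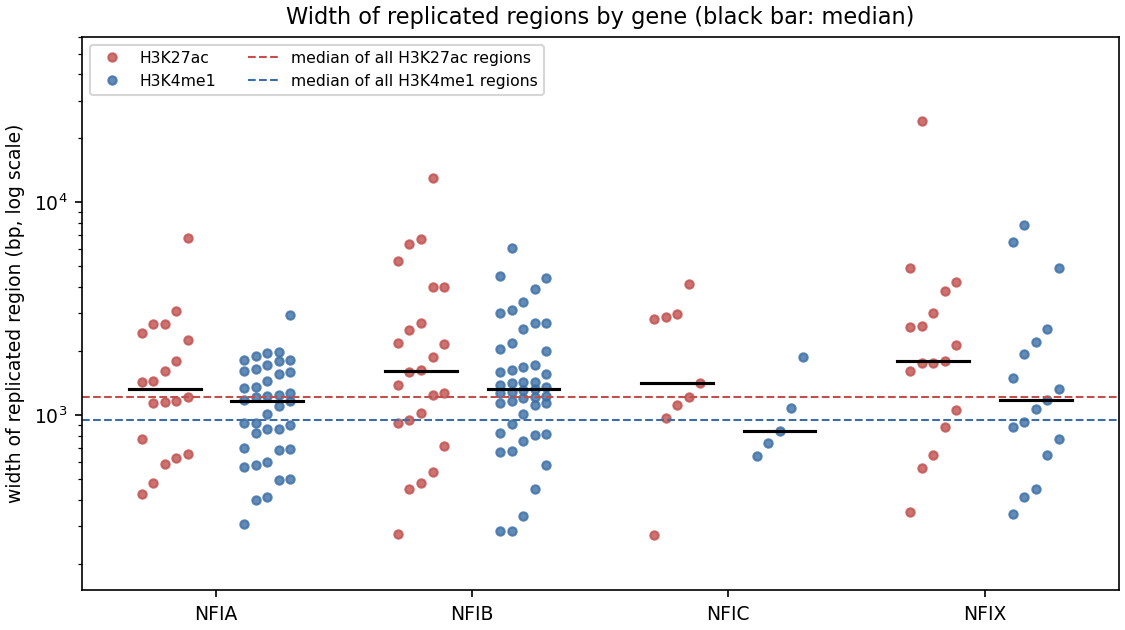
Width in bp, on a log scale, of every replicated region at the 4 genes, H3K27ac in red left of H3K4me1 in blue, with a black bar at the median of each group and dashed lines at the medians of all regions of the series (1217 bp for H3K27ac, 944 bp for H3K4me1). The H3K27ac regions of 23976 bp at NFIX and 12988 bp at NFIB stand above the others.

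Most H3K27ac regions at NFIA and NFIB carried H3K4me1, whereas most of those at NFIC did not. A replicated H3K4me1 region overlapped 18 of 20 H3K27ac regions at NFIA (90.0%, exact 95% binomial interval 68.3 to 98.8%) and 23 of 24 at NFIB (95.8%, 78.9 to 99.9%). It overlapped 2 of 9 at NFIC (22.2%, 2.81 to 60.01%) and 11 of 17 at NFIX (64.7%, 38.3 to 85.8%). Over the family this came to 54 of 70, or 77.1%, near the 73.5% of all H3K27ac regions. With equal numbers of the widest peaks of each list, the NFIA share was 65% and the NFIB share 86.4%. The NFIC share was 44.4% without H3K4me1 replicate 2 and 46.2% in the union of libraries. The intervals cover counting error over regions only, and regions of 1 gene are not replicates.

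NFIC and NFIX, the genes with the lower shares, lie on chromosome 19, which as a whole had a lower share than chromosomes 1 and 9. H3K4me1 overlapped 62.5% of H3K27ac regions on chromosome 19, 72.4% on chromosome 1 and 78.1% on chromosome 9. The NFIX share was close to that of its chromosome, and the NFIC share, based on 9 regions, was below it. The NFIA (90.0%) and NFIB (95.8%) shares were above those of their chromosomes, although the NFIA interval reached down to 68.3%. By single libraries, 40.0 and 41.7% of the peaks of H3K27ac replicates 1 and 2 at NFIC lay on a peak of H3K4me1 replicate 1, and 20 and 25% on one of replicate 2. At NFIB the same shares were 93.9 and 83.3% with H3K4me1 replicate 1, and 93.9 and 97.2% with replicate 2.

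In the other direction, H3K27ac overlapped 13 of 17 H3K4me1 regions at NFIX (76.5%, 50.1 to 93.2%) and 30 of 47 at NFIB (63.8%, 48.5 to 77.3%). It overlapped 22 of 40 at NFIA (55.0%, 38.5 to 70.7%) and 3 of 5 at NFIC (60%, 14.7 to 94.7%). Over the family this came to 68 of 109, or 62.4%, beside 47.1% of all H3K4me1 regions. By chromosome the share was 49.1% on chromosome 1, 46.4% on chromosome 9 and 65.3% on chromosome 19. The intervals of NFIX, NFIC and NFIA held the share of their chromosome, and that of NFIB lay above it. The family share was 50.9% with H3K4me1 replicate 1 alone (167 peaks) and 47.2% with replicate 2 alone (180 peaks). These shares count all peaks of a single library, so the 47.1%, over replicated regions, is not their background.

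H3K4me1 without H3K27ac lay closer to H3K27ac at NFIB and NFIX than at NFIA, where the share lying 10 kb or more away was near that of the series. The 18 such regions at NFIA lay a median of 12.1 kb from the nearest H3K27ac region, and 11 of them lay 10 kb or more away. The 17 at NFIB lay a median of 2.08 kb away, with 4 at 10 kb or more. The 4 at NFIX, the window with the most H3K27ac cover, lay 0.260 to 3.06 kb away, and the 2 at NFIC 0.323 and 19.9 kb away. Over all H3K4me1 regions without H3K27ac, 59.4% lay 10 kb or more away, close to the share at NFIA.

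By length, the genes differed in which mark stood alone. At NFIX, 28.9 kb of the replicated regions carried H3K27ac only, 27.8 kb both marks and 7.52 kb H3K4me1 only. NFIC had 14.5 kb with H3K27ac only, 3.37 kb with both and 1.80 kb with H3K4me1 only. NFIB had 21.6 kb with H3K27ac only, 35.4 kb with both and 40.3 kb with H3K4me1 only. NFIA had 16.15 kb with H3K27ac only, 18.2 kb with both and 28.8 kb with H3K4me1 only. H3K4me1 standing alone was thus the longest class of the replicated regions at NFIA and NFIB, and H3K27ac standing alone the longest at NFIC. Of these orders, only that of NFIC held in all 4 pairings of an H3K27ac with an H3K4me1 library. With replicate 1 of both marks, H3K27ac only was the longest class at NFIA (21.6 kb, against 20.6 kb for H3K4me1 only) and at NFIB (29.7 kb, against 26.3 kb). At NFIX H3K27ac only was the longest class with H3K4me1 replicate 1, and both marks together with H3K4me1 replicate 2 (29.6 and 27.9 kb with H3K27ac replicates 1 and 2).

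Over the 4 pairings of libraries, 41.3 to 54.4% of the H3K27ac length at NFIX lay in H3K4me1, and 70.5 to 80.3% of the H3K4me1 length lay in H3K27ac. At NFIC these ranges were 19.1 to 20.8% of the H3K27ac length and 52.6 to 63.1% of the H3K4me1 length. At NFIB they were 46.5 to 62.2% and 37.5 to 50.9%. At NFIA they were 33.5 to 52.9% and 30.2 to 34.97%. NFIC had the lowest H3K27ac share in every pairing, and NFIX the highest H3K4me1 share.

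**Figure D4:**
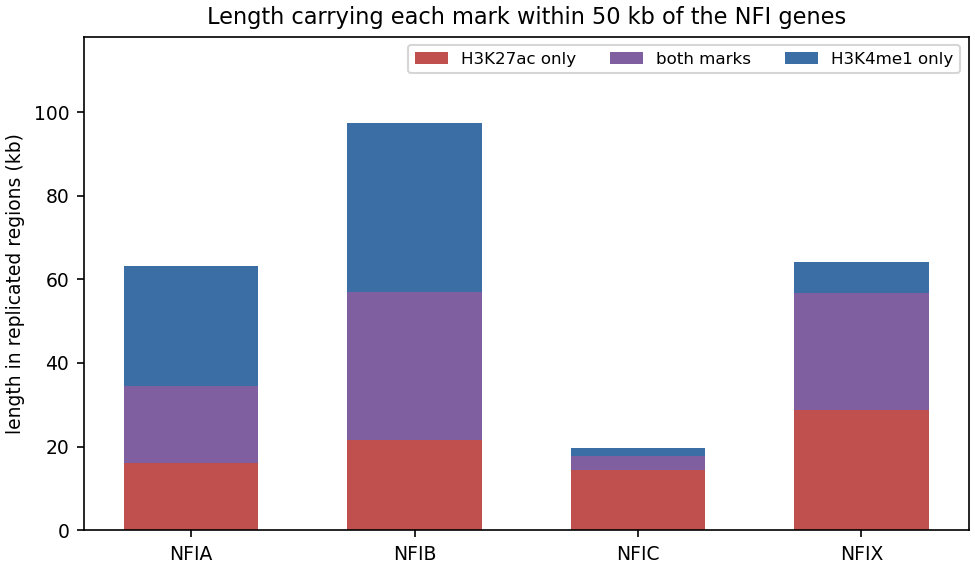
Length in kb of replicated regions that carried H3K27ac only (red), both marks (violet) or H3K4me1 only (blue) within 50 kb of each gene. H3K4me1 only is 40.3 kb at NFIB, 28.8 kb at NFIA, 7.52 kb at NFIX and 1.80 kb at NFIC; with replicate 1 of both marks alone, H3K27ac only is longer than H3K4me1 only at NFIB and NFIA too.

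The widest H3K27ac region of NFIA and that of NFIB were free of H3K4me1 except towards their ends. Along the NFIB region of 12988 bp, divided into 5 equal parts in the direction of transcription, H3K4me1 covered 4.16 and 13.1% of the first part in replicates 1 and 2. It covered 38.9 and 75.5% of the last part and 0 of the 3 parts between. Along the NFIA region of 6772 bp, H3K4me1 covered 51.4 and 68.0% of the first part and 0 of the other 4. The longest stretch without H3K4me1 was 11.3 and 10.7 kb in the NFIB region and 5.82 and 5.65 kb in the NFIA region, in replicates 1 and 2.

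The NFIX region carried H3K4me1 in each of its 5 parts, most at its far end, but with an empty stretch as well. Inside it no H3K4me1 peak lay from 26.7 to 33.8 kb past the outer start in replicate 1 (7.04 kb) or from 26.8 to 32.5 kb in replicate 2 (5.73 kb). H3K4me1 covered 28.5 and 53.2% of the first part in replicates 1 and 2, 27.2 and 28.0% of the third and 94.2 and 100% of the last. The widest H3K4me1 region of the family, 7822 bp (chromosome 19, 13140344 to 13148165), lay over this end and had 77.2% of its length in H3K27ac. That H3K4me1 region had peaks of at most 3388 bp in replicate 1 and 6987 bp in replicate 2. The NFIC region before the gene carried H3K4me1 on 81.3 and 100% of its first part in replicates 1 and 2, and on 0 and 37.4% of its last.

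**Figure D5:**
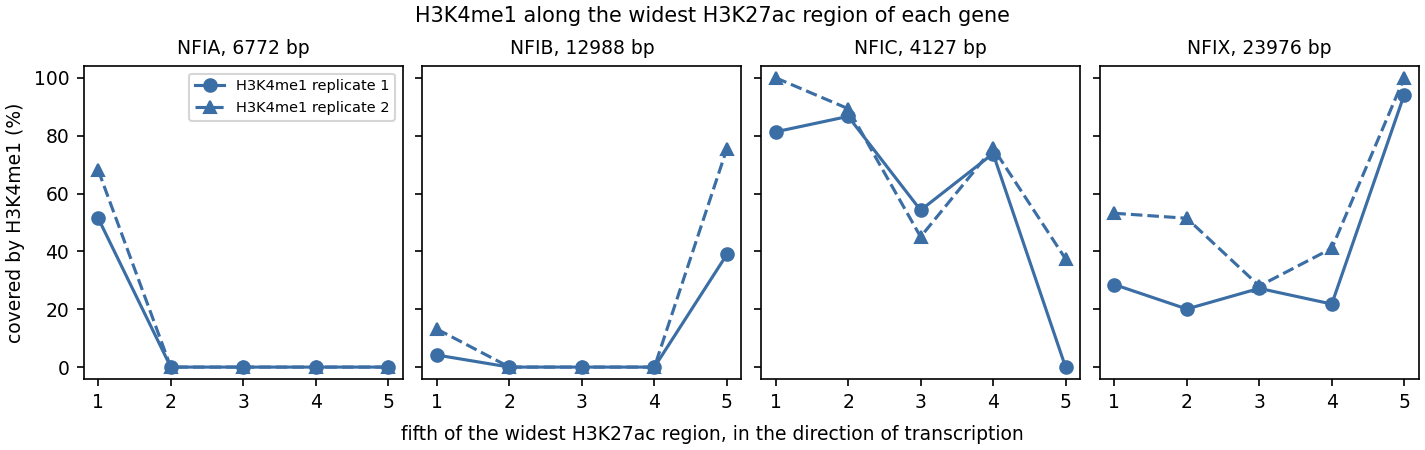
Percent of each of 5 equal parts of the widest H3K27ac region of a gene that was covered by H3K4me1, in the direction of transcription, with circles and solid lines for replicate 1 and triangles and dashed lines for replicate 2. The inner parts at NFIB and 4 of the 5 parts at NFIA are at 0, while the last part at NFIX reaches 94.2 and 100%.

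Further into the genes, some H3K27ac regions lay in H3K4me1 and some did not; those given here were picked after their values were seen. At NFIX a region of 4930 bp (chromosome 19, 13160841 to 13165770) lay 54.3 to 59.2 kb past the outer start, with 94.1% of its length in H3K4me1. From 66.4 to 102.2 kb past the start, a stretch of 35.8 kb, NFIX held no replicated region of either mark. At NFIB regions of 6682 bp (14176769 to 14183450) and 5315 bp (14196138 to 14201452) lay 215.5 to 222.2 and 197.5 to 202.8 kb past the outer start, with 59.4 and 92.9% of their length in H3K4me1. At NFIA the second widest H3K27ac region, 3066 bp (61648524 to 61651589), lay 105.6 to 108.6 kb past the start. No replicated H3K4me1 region overlapped the H3K27ac regions at 163.7 to 165.2 kb in NFIA, 75.03 to 76.1 kb in NFIC and 102.2 to 104.3 kb at the end of NFIX. H3K4me1 over the NFIA region of 3066 bp differed by library, with 6.72% of its length covered in replicate 1 and 44.4% in replicate 2.

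Of the 70 H3K27ac regions, 44 had more than 50% of their length in H3K4me1, or 62.9%, beside 56.0% of all H3K27ac regions. They were 22 of 24 at NFIB, 14 of 20 at NFIA, 6 of 17 at NFIX and 2 of 9 at NFIC. Of the 109 H3K4me1 regions, 52 had more than 50% of their length in H3K27ac, or 47.7%, beside 33.9% of all. NFIX had 12 of 17, NFIA 17 of 40, NFIB 20 of 47 and NFIC 3 of 5.

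Each gene also had long stretches without H3K27ac. The longest without a replicated H3K27ac region was 61.5 kb at NFIC, from 8.83 to 70.4 kb past the outer start, and it held 1 replicated H3K4me1 region. At NFIA it was 56.9 kb, from 165.2 to 222.0 kb, with 2 replicated H3K4me1 regions. At NFIB it was the first 45.1 kb, with 1 replicated H3K4me1 region. The longest stretch of NFIC without a replicated H3K4me1 region was its first 49.6 kb, in which each library had an H3K4me1 peak not found in the other. It held the H3K27ac regions at the start and at 5.99 to 8.83 kb.

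Flanking intervals may belong to other genes, and this matters most for NFIX and NFIC. By the order of genes in RefSeq (GRCh38), the protein-coding neighbours of NFIX are GADD45GIP1 and DAND5 before it and LYL1 and TRMT1 after it. Those of NFIC are NCLN and CELF5 before it and SMIM24 and SMIM44 after it. Neighbours of NFIA are CYP2J2 and C1orf87 on one side and TM2D1 and PATJ on the other, and those of NFIB are LURAP1L and MPDZ, and ZDHHC21 and CER1. At NFIX 6 of 17 H3K27ac regions lay outside the span, and a region of 2127 bp (13208769 to 13210895) lay across its outer end. At NFIC 5 of 9 lay outside the span, including the widest. At NFIA 3 of 20 and at NFIB 6 of 24 did. Which neighbour each flanking region lies on was not determined.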

How the data were processed

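Peaks of H3K27ac (2 libraries) and H3K4me1 (2 libraries) were analysed as deposited. Tools listed, per the submitters' processing notes, were MACS2 2.1.0, Bowtie 1.1.2, Trimmomatic 0.33 and bcl2fastq 2.17, with build hg19 (GRCh37). What each did, the peak threshold and the control are not given in these sources. For each library the authors deposited 1 list with chromosome, start, end and name, so every value is a position or length in bp, and depth is unknown. The smallest width and the smallest gap differed between lists (172 to 232 bp and 173 to 233 bp), which affects peak number and width.

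Gene spans came with the choice of the family. Strand and promoter sequences came from RefSeq (GRCh38.p14), and no position was converted. Peaks reaching into a window were counted whole, and covered length was cut at the window's edge. Overlap meant 1 bp or more. Marks were compared over libraries with an exact two-sided permutation test and Benjamini-Hochberg adjustment. Python 3.11.15, numpy 2.4.6, pandas 2.3.3 and scipy 1.17.1 were used, and the interval arithmetic was tested on simulated data. The text names all 4 genes, the intervals at their outer starts, the widest regions of each mark and up to 2 protein-coding neighbours a side; other regions were named after their values were seen. The members, lists and tests were chosen with earlier results of these data known. Alternatives changed the libraries, flanks, overlap, joining distance, region definition and number of peaks.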

Additional observations from a re-analysis of the deposited data

How the results depend on the processing

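Over 41 results, 13 alternative settings gave 379 values. Of these, 274 kept their direction or stayed within the spread of the libraries (region numbers within 1.5 times), 97 moved further and 8 turned round. With a replicate left out, the cover of a gene cannot move beyond that spread, so those values stayed within it by construction. NFIX kept the highest H3K27ac cover, ahead of NFIB, in all 7 settings that bear on it. All of them kept the wide NFIX region known when the family was chosen, so nothing is read from this lead. NFIC and NFIA changed places with 20 kb flanks and in the spans alone. For H3K4me1, NFIC stayed lowest in all 7, and NFIB passed NFIX without H3K4me1 replicate 1 and with 100 kb flanks. The depth behind the peaks is unknown and the lists differ in smallest width, so differences in peak number and width between the marks cannot be told apart from differences between the lists.

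With equal numbers of widest peaks (54763 a list), the ratios of H3K27ac over H3K4me1 turned round for peak number (1.01) and median width (0.992). They did so too for peak number at NFIX (1.45) and covered length at NFIA (1.01). This setting drops mainly narrow H3K4me1 peaks, which by itself raises the ratios of number and length and lowers that of width. The overlap shares became 62.7% of H3K27ac and 71.6% of H3K4me1 regions, and H3K4me1 regions fell to 67. In the spans alone the length ratio turned round (0.960), 84% of H3K27ac regions carried H3K4me1, and the range of cover over genes was 35.002 percentage points for H3K27ac and 28.4 for H3K4me1, beside 20.2 and 14.1 as reported. With 20 kb flanks these ranges were 28.3 and 21.1, and with 100 kb flanks the H3K27ac range was 18.8 and 64.6% of H3K4me1 regions carried H3K27ac. An overlap of at least 50% of the shorter interval gave 54.6% of H3K4me1 regions with H3K27ac. The union of both libraries gave 85.4% of H3K27ac and 52.1% of H3K4me1 regions, with 194 H3K4me1 regions. The common smallest width and joining distance of 232 bp moved none of the family values beyond the spread between libraries. The cause was not tested for any of these changes, beyond what follows from fewer or wider intervals.

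Leaving out a replicate gave length ratios of 0.853 to 1.32 over the family, 73.3 to 84.3% of H3K27ac regions and 47.2 to 67.0% of H3K4me1 regions with the other mark, and 167 to 180 H3K4me1 regions. The lowest length ratio came without H3K4me1 replicate 1, and the ratios at NFIA (0.592 to 1.01) and NFIB (0.636 to 1.01) turned round without H3K4me1 replicate 2. Deviations of same-numbered libraries of the marks had a weak negative correlation (r = -0.159 over 22974 windows of 100 kb). This gave no sign of pairing by number, but whether same-numbered libraries share a culture or batch was not tested. A replicate block gave ratios of 0.554 for number, 1.06 for length and 1.60 for width, and 77.3 and 53.1% for the overlap shares, and changed no call, its smallest possible p being 0.5. A replicate block with crossed numbers, chosen after seeing the data, gave 0 calls, and overlap shares of 74.2 and 51.3%.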
